A study of Mus musculus with 10 samples.

Results

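Matrix metalloproteinases (Mmp genes), the secreted metalloproteases of the Adamts family and their tissue inhibitors (Timp genes) were followed in RNA sequencing data of mouse cells. The genes were chosen by symbol alone, as Mmp with a number, Adamts with a number, or Timp1 to Timp4. The rule found 46 genes, 23 Mmp, 19 Adamts and 4 Timp genes, of 22594 genes in the deposited table. The 10 libraries came from lung fibroblasts at 12 h (2 libraries), lung fibroblasts at 0 h (2 libraries), ear fibroblasts at 12 h (3 libraries) and ear fibroblasts at 0 h (3 libraries). The labels call every group post-mortem, 0 h included, so no group stands outside that condition. The labels name no strain, age or genotype and no culture step before RNA extraction, and they do not say whether replicates came from separate animals. Each p value below therefore measures the spread between these libraries, part of which may be technical.

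Mmps are zinc proteases made as inactive precursors, and between them they cleave collagens, gelatin, elastin, proteoglycans and basement membrane. They fall into collagenases, gelatinases, stromelysins, an elastase of macrophages and membrane-anchored types, and fibroblasts are a known source of several of them during matrix turnover. Adamts proteases trim procollagen before fibrils form or cleave large proteoglycans such as aggrecan and versican, and Timps bind the active site of Mmps and, in the case of Timp3, of many Adamts proteases as well.

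Values are TPM, the number of transcripts of a gene on a scale with the same total in every library, corrected for transcript length, so that levels of different genes may be compared. Depth is unknown, because TPM keeps no read numbers. Libraries of one group correlated at 0.947 to 0.984 across genes, and all pairs at 0.808 to 0.990. Some pairs of different groups were as alike. Ear 12 h number 2 correlated at 0.990 with ear 0 h number 2. Lung 12 h number 1 correlated at 0.975 with lung 0 h number 2 and at 0.947 with lung 12 h number 2. The sum of 9 fibroblast markers was 3116 to 6191 TPM in lung and 4973 to 12924 TPM in ear. Vim was its largest part in each lung library, at 1239 to 2794 TPM, and was at 2109 to 2998 TPM in ear. Thy1 was at 11.1 to 53.1 TPM in lung and 219 to 368 TPM in ear. Lum was at 0.695 to 16.3 TPM in lung and 27.2 to 264 TPM in ear. The remaining fibroblast markers overlapped between the tissues. The lung libraries also held macrophage and myeloid transcripts. The 12 listed markers summed to 7236 and 16503 TPM in the lung 12 h libraries and 6962 and 5245 TPM in the lung 0 h libraries, against 25.3 to 54.4 TPM in the ear libraries, and all 12 reached 1 TPM in every lung library. Lyz2 made up most of the lung sums, at 4775 to 13720 TPM. In bulk RNA, fewer cells of a type and less RNA per cell cannot be told apart. Smooth muscle and pericyte markers summed to 5290 to 9117 TPM in lung and 142 to 1624 TPM in ear. Most of that sum was Acta2, at 4708 to 7861 TPM in lung and 125 to 1594 TPM in ear. Myh11, Cnn1, Des and Kcnj8 were also higher in each lung library, and Rgs5 overlapped. Cspg4 went the other way, at 0.424 to 3.59 TPM in lung and 3.95 to 17.5 TPM in ear. Chondrocyte markers summed to 0.381 to 9.03 TPM in lung and 27.4 to 197 TPM in ear.

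Timp transcripts exceeded Mmp transcripts in 10 of 10 libraries, and Mmp and Adamts transcripts together in 9, the exception being lung 0 h number 1 with 1460 TPM against 1504 TPM. The Timp genes summed to 2340 and 2050 TPM in the lung 12 h libraries, 1460 and 2043 TPM in the lung 0 h libraries, 2365, 3058 and 2696 TPM in the ear 12 h libraries and 2324, 2751 and 3315 TPM in the ear 0 h libraries. The Mmp genes summed to 792 and 1420 TPM in the 12 h lung libraries, 1289 and 822 TPM in the 0 h lung libraries, 1471, 550 and 1048 TPM in ear at 12 h and 1108, 509 and 506 TPM in ear at 0 h. The Adamts genes gave 139 to 290 TPM in lung and 136 to 519 TPM in ear. The Mmp and Adamts sums of the tissues overlapped, but the Mmp sum was made up in unlike shares. Mmp12, macrophage elastase, made up 27.3% to 69.3% of Mmp transcripts in lung and 0.505% to 1.25% in ear. Mmp2, gelatinase A, made up 1.36% to 7.24% in lung and 22.2% to 36.1% in ear. Mmp3, stromelysin-1, made up 0.960% to 11.1% in lung and 5.79% to 39.4% in ear. Mmp14, a membrane-anchored collagenase and an activator of Mmp2, had shares that overlapped, 9.52% to 23.7% in lung and 14.3% to 24.6% in ear.

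Of the 46 genes, 13 reached 100 TPM in at least 1 library, 24 reached 10 TPM and 22 stayed at 1 TPM or more in every library. A filter of 1 TPM in at least 2 libraries left 32 for testing, 16 Mmp, 13 Adamts and 3 Timp genes. The other 14 were not tested. They are Mmp1a, Mmp1b, Mmp7, Mmp20, Mmp21, Mmp24, Mmp25, Adamts8, Adamts16, Adamts17, Adamts18, Adamts19, Adamts20 and Timp4. Of these, 12 stayed under 1 TPM in every library, and Mmp7 (matrilysin, an epithelial protease) and Mmp20 (enamelysin, of developing teeth) were listed at 0 in all of them. Adamts16 passed 1 TPM only in ear 0 h number 2, at 1.02 TPM, and Timp4 only in ear 0 h number 1, at 2.89 TPM.

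**Figure D1:**
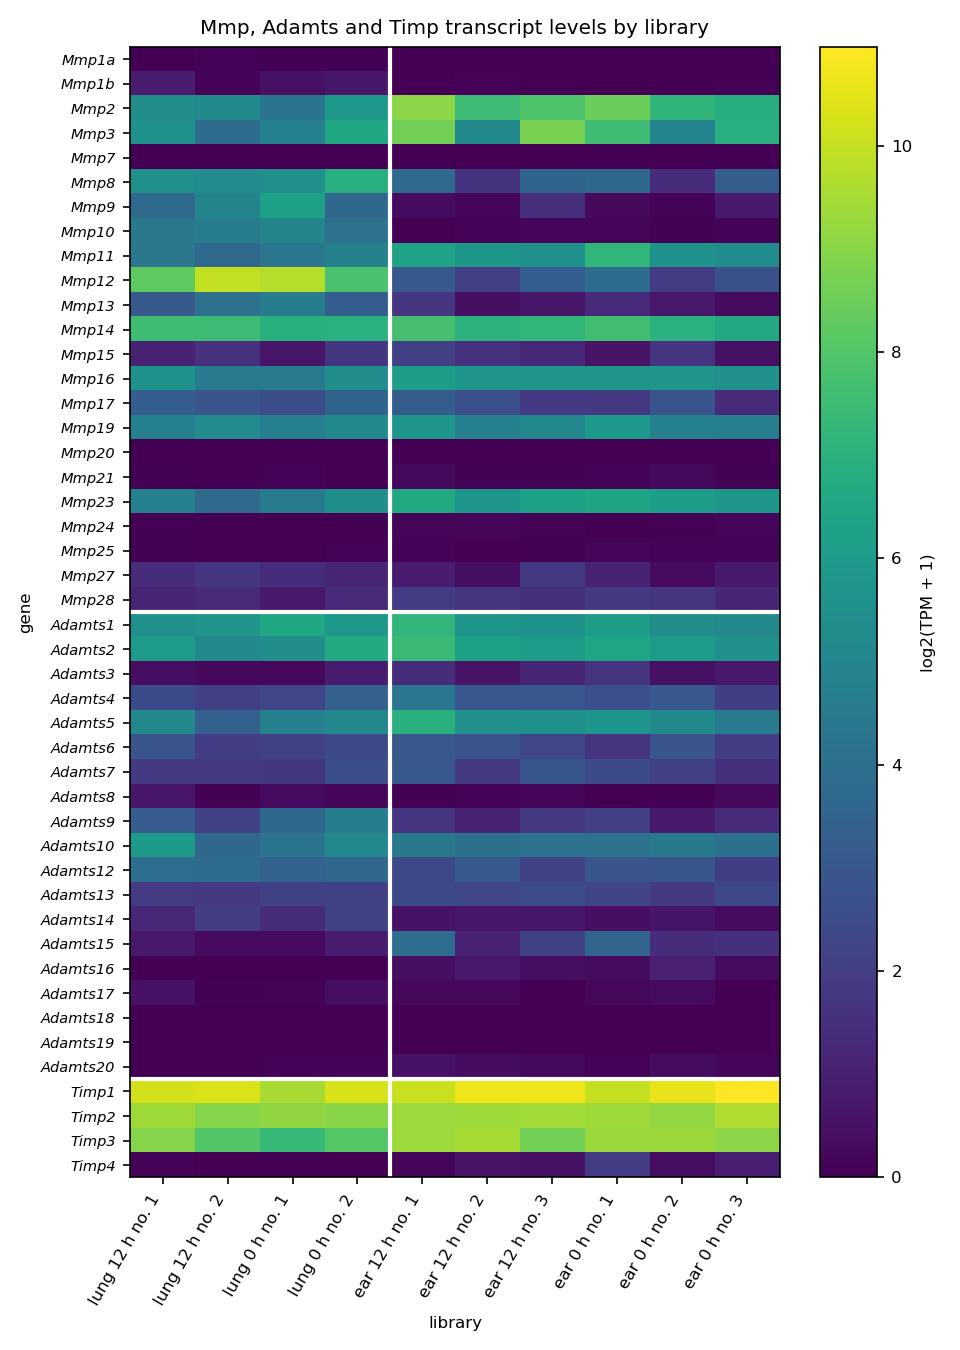
Heat map of the 46 genes (rows, Mmp, then Adamts, then Timp) in the 10 libraries (columns, lung left of the vertical line and ear right of it), with colour giving log2(TPM + 1). The rows of Timp1 and Timp2 are bright throughout, Mmp12 is bright in lung only, and Mmp2 is brighter in ear.

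Comparing lung with ear at 12 h, 9 of the 32 genes tested passed an adjusted p of 0.05, 6 higher and 3 lower in lung (28.1%, against 17.2% of all 13188 genes tested, 8.07% higher and 9.12% lower). The test was limma on log2(TPM + 1), with Benjamini-Hochberg adjustment over all genes tested, and fold changes below are lung over ear in those units, in which differences of genes near or under 1 TPM come out smaller than their TPM ratios. At 0 h, 9 of 32 passed as well, 7 higher and 2 lower in lung (28.1%, against 11.3% of all genes, 6.11% higher and 5.17% lower). Without lung 12 h number 2 the 12 h count was 3, with 2 of the 9 genes kept (Mmp10 and Mmp12) and Adamts10 newly called, and without lung 0 h number 1 the 0 h count was 5. The genes called at both times numbered 6, and 12 were called at either. The matching shares over all genes were not counted, so these numbers are not read as high or low. Mmp9, Mmp10, Mmp12, Mmp13 and Adamts14 were higher in lung at both times, and Mmp2 was lower. The calls at 12 h alone were Adamts12, higher in lung, and Mmp11 and Mmp23, lower. The calls at 0 h alone were Mmp8 and Adamts9, higher, and Timp3, lower. No gene's tissue difference was called as different between the times: the interaction of tissue and time gave 0 calls among the 32 genes and 0 among all genes (limma), with 1 of the 32 and 387 of all genes at an unadjusted p under 0.05.

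The median log2 difference between lung and ear was -0.29 over the 32 genes tested and -0.14 over all genes tested at 12 h, and 0.06 and -0.08 at 0 h. Over all 46 genes, without a filter, it was -0.14 at 12 h and -0.00081 at 0 h. The lung and ear libraries did not overlap for 23 of the 46 genes at 12 h (9 with lung above, 14 with lung below) and for 22 at 0 h (11 each way). Over all genes tested, 47.3% did not overlap at 12 h (17% with lung above and 30.2% below) and 43.6% at 0 h (18% above and 25.6% below). Among the 32 tested genes these were 18 and 16. The filter bears on some directions. Mmp9, Mmp10 and Adamts14 passed it through lung libraries, since fewer than 2 ear libraries reached 1 TPM, and Adamts3 and Adamts15 passed it through ear libraries.

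**Figure D2:**
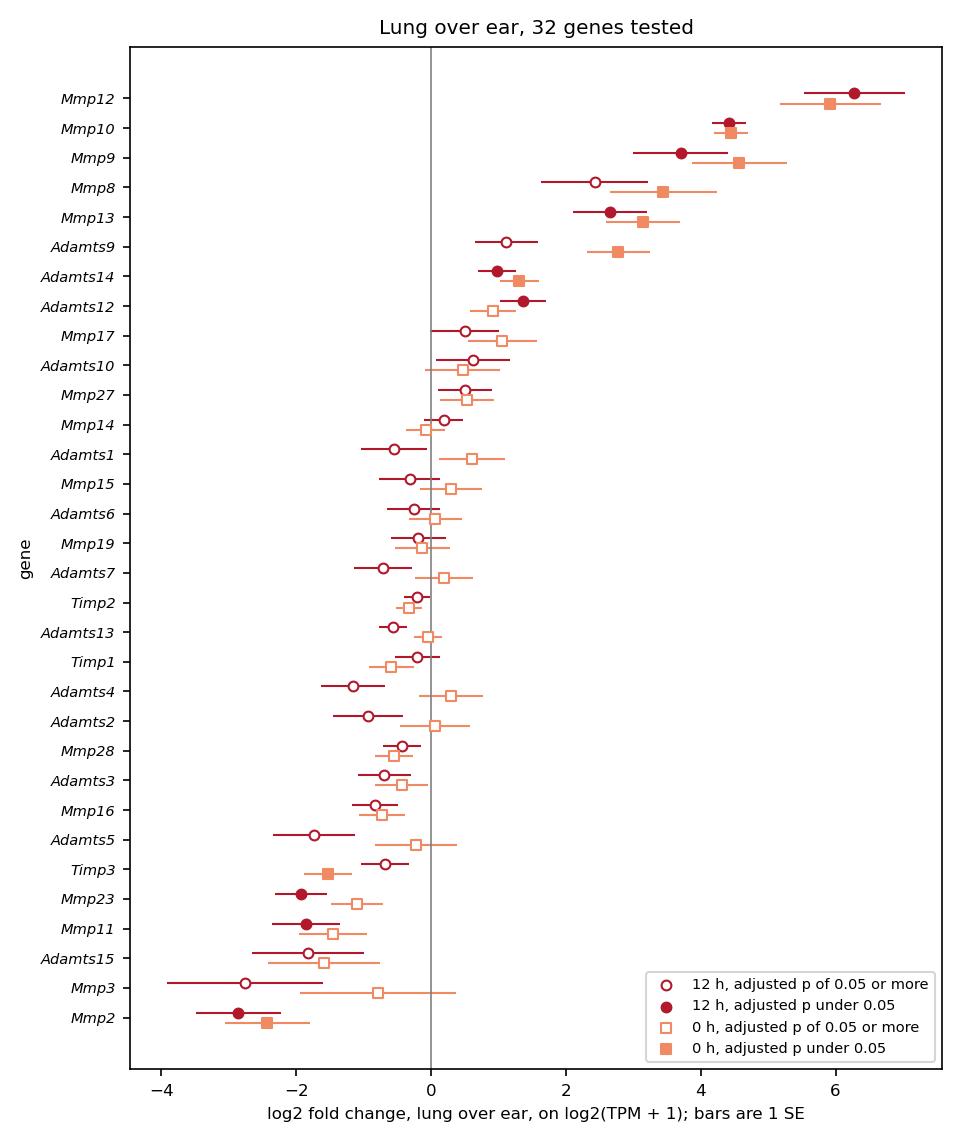
Log2 fold change of lung over ear (x axis, on log2(TPM + 1), bars 1 SE) for the 32 genes tested (y axis), at 12 h (circles) and 0 h (squares), filled where the adjusted p was under 0.05. The filled points run from Mmp12 at 6.28 and 5.92 to Mmp2 at -2.86 and -2.43, and most genes lie near 0 with open symbols.

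Of the Mmp genes, 10 lie side by side on chromosome 9 within 427 kb (GRCm38, 7272514 to 7699585), with no other protein-coding gene of the annotation between them. Their order is Mmp13, Mmp12, Mmp1b, Mmp3, Mmp1a, Mmp10, Mmp8, Mmp27, Mmp20 and Mmp7. Mmp1a is annotated as a polymorphic pseudogene and the other 9 as protein-coding. Genes called higher in lung lie on both sides of Mmp3, which was not called and was most abundant in ear libraries. The letters around the start of 5 of these genes are shown. Of these, Mmp13, Mmp12, Mmp3 and Mmp10 share 2 motifs there and had unlike levels, while Mmp8 holds only 1 of the 2 motifs. The stretches run from 250 bases before to 50 bases after the RefSeq transcription start (GRCm38.p6, plus strand), at chr9:7272264-7272563 for Mmp13, chr9:7347124-7347423 for Mmp12, chr9:7445572-7445871 for Mmp3, chr9:7502092-7502391 for Mmp10 and chr9:7558179-7558478 for Mmp8. Capitals mark the AP-1 motif TGANTCA, the letters bound by Fos and Jun dimers, and the TATA box TATAAA, both searched on both strands. The matches of one motif did not overlap those of the other.
Mmp13: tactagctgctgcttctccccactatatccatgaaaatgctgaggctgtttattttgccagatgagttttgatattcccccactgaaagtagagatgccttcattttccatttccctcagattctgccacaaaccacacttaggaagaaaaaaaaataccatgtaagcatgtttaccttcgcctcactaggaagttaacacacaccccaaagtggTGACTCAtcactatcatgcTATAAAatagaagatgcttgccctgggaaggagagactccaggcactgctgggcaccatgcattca
Mmp12: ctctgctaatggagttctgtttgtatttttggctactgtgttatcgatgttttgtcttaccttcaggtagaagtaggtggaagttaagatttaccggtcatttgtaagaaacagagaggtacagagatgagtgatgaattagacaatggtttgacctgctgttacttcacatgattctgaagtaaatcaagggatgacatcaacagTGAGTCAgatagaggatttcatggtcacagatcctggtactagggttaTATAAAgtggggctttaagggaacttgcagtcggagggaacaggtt
Mmp3: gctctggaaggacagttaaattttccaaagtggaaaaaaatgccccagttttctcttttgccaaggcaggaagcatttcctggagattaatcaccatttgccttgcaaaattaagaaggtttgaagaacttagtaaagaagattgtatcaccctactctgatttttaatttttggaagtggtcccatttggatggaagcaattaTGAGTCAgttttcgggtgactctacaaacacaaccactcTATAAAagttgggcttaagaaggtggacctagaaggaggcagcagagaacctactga
Mmp10: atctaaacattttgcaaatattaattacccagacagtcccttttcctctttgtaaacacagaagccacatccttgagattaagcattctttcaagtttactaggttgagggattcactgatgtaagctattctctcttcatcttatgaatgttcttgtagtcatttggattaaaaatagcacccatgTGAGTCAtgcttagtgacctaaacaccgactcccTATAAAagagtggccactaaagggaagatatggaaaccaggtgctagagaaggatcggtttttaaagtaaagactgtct
Mmp8: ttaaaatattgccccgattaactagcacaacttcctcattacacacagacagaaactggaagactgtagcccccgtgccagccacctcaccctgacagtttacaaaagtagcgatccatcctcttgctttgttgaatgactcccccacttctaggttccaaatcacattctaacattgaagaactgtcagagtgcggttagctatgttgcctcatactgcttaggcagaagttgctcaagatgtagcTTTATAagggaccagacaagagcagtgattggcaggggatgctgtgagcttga

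The AP-1 letters lay 35 bases before the start in Mmp13, 44 in Mmp12, 46 in Mmp3 and 63 in Mmp10. The TATA letters began 19, 48, 39 and 34 bases after the AP-1 letters did. They began 16 bases before the start in Mmp13, 7 in Mmp3 and 29 in Mmp10. In Mmp12 they began 4 bases after the printed start. Mmp8 held no AP-1 match in its window, and its TATA match is on the minus strand, 3 bases before the start. RefSeq promoters were found for 32 of the 46 genes, with 35 windows. AP-1 letters occurred in 8 of these 32 genes (Mmp1a, Mmp1b, Mmp3, Mmp7, Mmp10, Mmp12, Mmp13 and Mmp20), all within the chromosome 9 cluster, in 8 of its 10 genes and in 0 of the other 22. Over all 32544 distinct promoters of the table, 7.79% held an AP-1 match and 13.6% a TATA match. TATA letters occurred in 9 of the 10 cluster genes and in 2 others, Adamts1 and Mmp21. The shorter Ets core GGAA was in 96.0% of all promoters and so says little here. Mmp3, with both motifs, was among the more abundant proteases of ear, whereas Mmp7 and Mmp20, also with both, were listed at 0. A second RefSeq start of Mmp12, with the window chr9:7344147-7344446, held neither motif. The transcript that begins at the printed Mmp12 window, Mmp12-201 (start 7347374), took 84.5% to 97.7% of the gene's TPM in lung and 58.5% to 100% in ear, where the gene was low.

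Of the Mmp and Adamts genes, Mmp12 was the most abundant in each lung library. Its level was 297 and 984 TPM in the 12 h lung libraries, 851 and 224 TPM in the 0 h lung libraries, 7.43, 3.19 and 8.60 TPM in ear at 12 h and 13.8, 2.86 and 5.62 TPM in ear at 0 h. Each lung library lay above each ear library, and within lung the highest libraries were number 2 at 12 h and number 1 at 0 h. The fold change was 6.28 (SE 0.75) at 12 h and 5.92 (SE 0.75) at 0 h, with adjusted p of 6.65e-04 and 0.0012 (limma). These calls held under each of the 18 alternatives. The gene shares exon sequence on the opposite strand with Mmp1b, and 5.69% of its 31-base words occur in other genes, but Mmp1b itself did not exceed 0.768 TPM in any library. The sum of the macrophage markers was also highest, at 16503 TPM, in the library with the highest Mmp12. It was 6962 TPM in lung 0 h number 1 and 7236 TPM in lung 12 h number 1. Mmp12 was at 851 and 297 TPM there. Single markers differed. Cd68, Adgre1, Csf1r, Tyrobp, Ptprc and Itgam ranked the lung libraries as Mmp12 did. Lyz2, Fcer1g, Mrc1, Cd14, C1qa and C1qb did not. The part of macrophages in the result was not tested.

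Mmp10, stromelysin-2, was at 20.0 and 24.0 TPM in the 12 h lung libraries and 30.6 and 16.5 TPM in the 0 h lung libraries, against 0.0128, 0.0729 and 0.123 TPM in ear at 12 h and 0.104, 0.0464 and 0.0741 TPM in ear at 0 h. No ear library came near the lung range. The difference was 4.42 (SE 0.25) at 12 h and 4.45 (SE 0.25) at 0 h, with adjusted p of 1.85e-05 and 2.11e-05 (limma). With a pseudocount of 0.1 in place of 1 the differences were 7.07 and 7.03, since the ear levels lie far below 1 TPM. Mmp3, the other stromelysin of the cluster, ends 46.4 kb before it. Of the 31-base words of Mmp10, 11.9% are shared with other genes, 202 of them with Mmp3. A part of the Mmp10 level may therefore rest on how reads were divided between them, and its size was not tested. In ear 12 h numbers 1 and 3, Mmp3 was at 391 and 413 TPM and Mmp10 at 0.0128 and 0.123 TPM.

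Mmp3, a stromelysin that cleaves proteoglycans and activates other Mmp precursors, went the other way in value but not past the test. It was at 48.3 and 13.6 TPM in the 12 h lung libraries, 26.7 and 90.9 TPM in the 0 h lung libraries, 391, 36.4 and 413 TPM in ear at 12 h and 186, 29.4 and 115 TPM in ear at 0 h. Ear number 2 was low at both times, and through it the tissues overlapped. The fold change was -2.76 (SE 1.15, adjusted p = 0.136) at 12 h and -0.79 (SE 1.15, adjusted p = 0.75) at 0 h (limma). Without ear 12 h number 2 the 12 h difference was -3.91 and was called (adjusted p = 0.0239).

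The collagenases Mmp13 and Mmp8, which cut fibrillar collagens, were both higher in lung where called. Mmp13 was at 7.30 and 16.6 TPM in the 12 h lung libraries, 24.3 and 8.53 TPM in the 0 h lung libraries, 2.29, 0.352 and 0.567 TPM in ear at 12 h and 1.56, 0.689 and 0.260 TPM in ear at 0 h. The tissues did not overlap, and the high lung libraries were the same as for Mmp12. The difference was 2.66 (SE 0.55, adjusted p = 0.0105) at 12 h and 3.14 (SE 0.55, adjusted p = 0.00657) at 0 h (limma). It was not called at 12 h without lung 12 h number 2 (2.12, adjusted p = 0.0869), nor at 0 h without lung 0 h number 1 (2.44, adjusted p = 0.0773). Mmp8, known as the collagenase of neutrophils, was at 44.3 and 38.3 TPM in the 12 h lung libraries, 44.8 and 120 TPM in the 0 h lung libraries, 12.4, 2.08 and 10.7 TPM in ear at 12 h and 12.1, 1.60 and 8.35 TPM in ear at 0 h. Lung lay above ear at both times, and ear number 2 was again the low one. The difference was 3.45 (SE 0.80, adjusted p = 0.0232) at 0 h and 2.43 (SE 0.80, adjusted p = 0.067) at 12 h (limma). The 12 h difference of Mmp8 was called without ear 0 h number 2 (adjusted p = 0.0383). At 0 h it was not called without lung 0 h number 1 (adjusted p = 0.0612) or without number 2 (adjusted p = 0.155). The 8 neutrophil markers summed to 37.8 to 58.4 TPM in lung and 1.95 to 14.4 TPM in ear, most of it S100a8, while Ly6g was listed at 0 in every lung library and S100a9 did not exceed 1.53 TPM there. The part of such cells in the Mmp8 level was not tested.

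**Figure D3:**
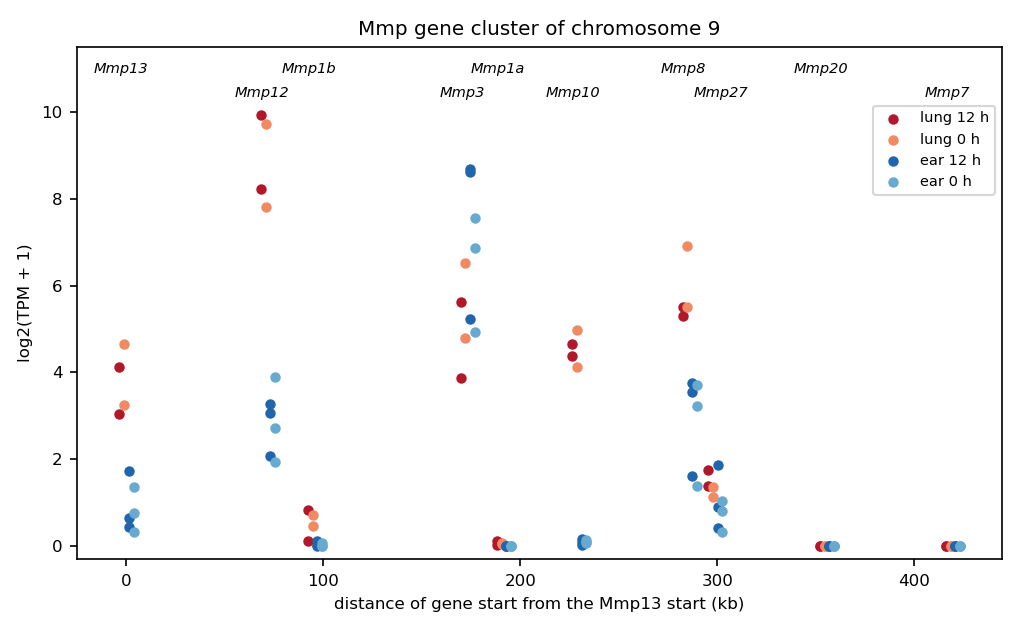
Level of the 10 Mmp genes of the chromosome 9 cluster (y axis, log2(TPM + 1), 1 point a library) by the distance of the gene's start from that of Mmp13 (x axis, kb), with the 4 groups set slightly apart. Lung points lie above ear points for Mmp13, Mmp12, Mmp10 and Mmp8, while for Mmp3 the 4 highest points are ear libraries.

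The gelatinases, which digest denatured collagen and basement membrane collagen, differed in opposite directions. Mmp2 (chromosome 8, 92827291 to 92853420) was at 41.5 and 36.0 TPM in the 12 h lung libraries, 17.5 and 59.5 TPM in the 0 h lung libraries, 531, 179 and 247 TPM in ear at 12 h and 355, 144 and 112 TPM in ear at 0 h. Ear lay above lung at both times, with number 1 the highest ear library at each. The difference was -2.86 (SE 0.63, adjusted p = 0.0146) at 12 h and -2.43 (SE 0.63, adjusted p = 0.0389) at 0 h (limma). The 12 h call was lost without lung 12 h number 1 (adjusted p = 0.0522) or number 2 (adjusted p = 0.0831). The 0 h call was lost without any 1 of 6 libraries, and the largest shift came without lung 0 h number 1, where the difference was -1.57 (adjusted p = 0.339). Without the others, which were both lung 12 h libraries, ear 0 h numbers 1 and 2 and ear 12 h number 3, the adjusted p was 0.0516, 0.0521, 0.0971, 0.066 and 0.0615.

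Mmp9 (chromosome 2, 164940780 to 164955850), gelatinase B, was at 12.6 and 30.8 TPM in the 12 h lung libraries, 73.8 and 12.1 TPM in the 0 h lung libraries, 0.294, 0.113 and 1.82 TPM in ear at 12 h and 0.223, 0.0808 and 0.716 TPM in ear at 0 h. Every lung library was above every ear library, with the same high lung libraries as for Mmp12 and Mmp13 and with number 3 the highest in ear. The difference was 3.70 (SE 0.70, adjusted p = 0.00712) at 12 h and 4.57 (SE 0.70, adjusted p = 0.00349) at 0 h (limma). The 0 h call held under each of the 18 alternatives, and the 12 h call was lost without lung 12 h number 2 (3.09, adjusted p = 0.0648) and with library weights (3.27, adjusted p = 0.0519). Macrophages are also a known source of Mmp9, and the macrophage marker sums given above separate the tissues in the same way. Their part was not tested.

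**Figure D4:**
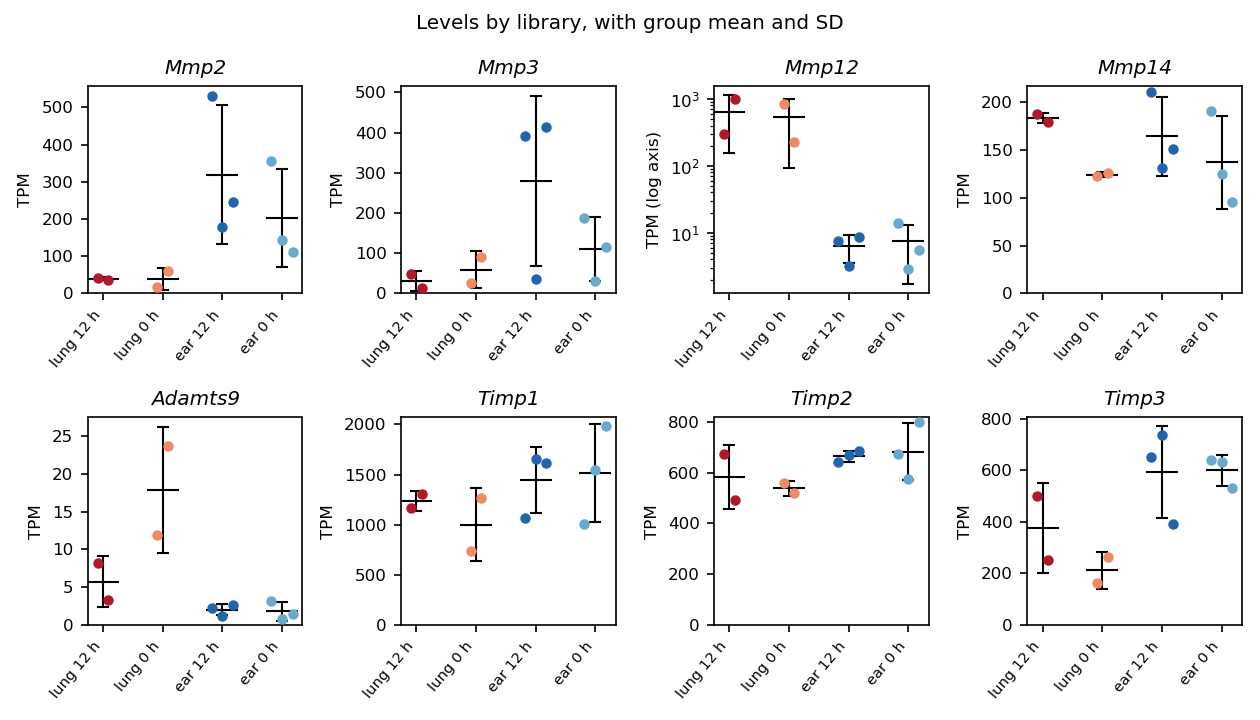
TPM of 8 genes by library in the 4 groups (points, with a horizontal line at the group mean and bars of 1 SD), on a log axis for Mmp12 and linear axes from 0 for the others. Mmp2 lies higher in ear and Mmp12 in lung, Mmp14 and Timp2 overlap between tissues at 12 h, and Timp3 in lung at 0 h lies below all ear libraries at 0 h.

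Mmp14, which anchors in the membrane, cuts collagen at the cell surface and activates Mmp2 together with Timp2, was abundant in all 4 groups. It was at 187 and 180 TPM in the 12 h lung libraries, 123 and 126 TPM in the 0 h lung libraries, 211, 131 and 151 TPM in ear at 12 h and 191, 125 and 95.8 TPM in ear at 0 h. The tissues overlapped at both times, and the difference was 0.19 (SE 0.29) at 12 h and -0.08 (SE 0.29) at 0 h, with adjusted p of 0.698 and 0.908 (limma). Of the 6 membrane-type Mmps, 4 were tested and 0 were called in either tissue comparison. Of all genes tested, 17.2% were called at 12 h and 11.3% at 0 h. With 4 genes tested, 0 calls do not set this group apart from other genes. Mmp16, another transmembrane type, was at 21.1 to 48.1 TPM in lung and 45.0 to 67.9 TPM in ear, with differences of -0.83 (adjusted p = 0.133) at 12 h and -0.73 (adjusted p = 0.231) at 0 h by limma. Without lung 12 h number 1 the 12 h difference of Mmp16 was -1.41 (adjusted p = 0.022) and was called.

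Lower in lung at 12 h were Mmp11 and Mmp23, both of which are activated inside the cell by furin-like convertases. Mmp11, stromelysin-3, was at 19.4 and 12.3 TPM in the 12 h lung libraries, 19.4 and 27.0 TPM in the 0 h lung libraries, 79.3, 55.3 and 46.1 TPM in ear at 12 h and 146, 46.5 and 39.2 TPM in ear at 0 h. Ear lay above lung at each time, and ear number 1 was highest at both. The difference was -1.86 (SE 0.51, adjusted p = 0.0347) at 12 h and -1.45 (SE 0.51, adjusted p = 0.108) at 0 h (limma). Leaving out any 1 of the 5 libraries of 12 h ended the 12 h call, with adjusted p of 0.0568 to 0.181. Mmp11 overlaps exons of Chchd10 on the opposite strand, and 4.46% of its 31-base words are shared with other genes.

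Mmp23 was at 26.3 and 12.9 TPM in the 12 h lung libraries, 22.5 and 43.1 TPM in the 0 h lung libraries, 100.5, 53.5 and 73.1 TPM in ear at 12 h and 82.8, 68.7 and 54.8 TPM in ear at 0 h. The tissues did not overlap. The difference was -1.93 (SE 0.38, adjusted p = 0.00879) at 12 h and -1.10 (SE 0.38, adjusted p = 0.109) at 0 h (limma). Without lung 12 h number 2 the 12 h difference was -1.45 (adjusted p = 0.0746), and with library weights the 0 h difference was -1.05 and was called (adjusted p = 0.0391). Mmp19, a protease of basement membrane components, was at 25.4 to 38.1 TPM in lung and 24.7 to 58.3 TPM in ear and was not called. Of its 3508 distinct 31-base words, 759 are shared with the overlapping gene Tmem198b. Mmp15, Mmp17, Mmp27 and Mmp28 stayed at or below 10.5 TPM in every library and passed no test.

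The deposited values are per transcript, and for most genes 1 transcript held most of the level. Mmp14-201 had at least 96.7% of Mmp14 and Timp3-201 at least 99.6% of Timp3 in every library. Mmp2-201 had 69.4% to 87.8% in lung and 78.1% to 90.9% in ear. In Mmp16 the shares did not overlap between tissues, as Mmp16-205 had 91.0% to 95.4% in lung and 80.1% to 87.4% in ear, and Mmp16-201 had 4.39% to 7.70% in lung and 12.3% to 19.8% in ear. These shares were not tested. Both transcripts of Timp1 had exactly 50% in each library, so the values do not tell them apart.

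Among the Adamts genes, 13 of 19 were tested, 2 were called at 12 h and 2 at 0 h, all higher in lung. Over all genes tested, 17.2% were called at 12 h and 11.3% at 0 h, in either direction. Adamts9, which cleaves versican and aggrecan, was at 8.14 and 3.33 TPM in the 12 h lung libraries, 12.0 and 23.8 TPM in the 0 h lung libraries, 2.19, 1.15 and 2.57 TPM in ear at 12 h and 3.19, 0.721 and 1.47 TPM in ear at 0 h. Lung lay above ear at both times and was highest at 0 h. The difference was 2.78 (SE 0.47, adjusted p = 0.00541) at 0 h and 1.12 (SE 0.47, adjusted p = 0.138) at 12 h (limma). Without lung 0 h number 2 the 0 h call was lost (2.31, adjusted p = 0.0517). The gene overlaps exons of Gm15737 and of A730049H05Rik, which reached 24.0 TPM, on the opposite strand. Of its 31-base words, 3.48% are shared with other genes. Adamts12, which cleaves cartilage oligomeric matrix protein, was at 14.6 and 13.1 TPM in the 12 h lung libraries, 9.94 and 11.4 TPM in the 0 h lung libraries, 4.23, 7.48 and 3.37 TPM in ear at 12 h and 6.39, 6.69 and 3.08 TPM in ear at 0 h. The tissues did not overlap at either time. The difference was 1.36 (SE 0.34, adjusted p = 0.0249) at 12 h and 0.92 (SE 0.34, adjusted p = 0.128) at 0 h (limma). The 12 h call was lost without lung 12 h number 1 (adjusted p = 0.0938), lung 12 h number 2 (adjusted p = 0.0868), ear 12 h number 1 (adjusted p = 0.0713) or ear 12 h number 3 (adjusted p = 0.0778).

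The procollagen N-proteinases, which remove the amino-terminal propeptide of fibrillar procollagens, were led by Adamts2. It was at 64.4 and 35.2 TPM in the 12 h lung libraries, 42.0 and 103 TPM in the 0 h lung libraries, 168, 73.1 and 64.3 TPM in ear at 12 h and 89.4, 64.7 and 44.0 TPM in ear at 0 h. The tissues overlapped, and the difference was -0.94 (adjusted p = 0.25) at 12 h and 0.06 (adjusted p = 0.966) at 0 h. Adamts14 of the same group was low, at 1.42 to 3.37 TPM in lung and 0.235 to 0.648 TPM in ear, and was higher in lung by 0.98 (SE 0.29, adjusted p = 0.0461) at 12 h and 1.31 (SE 0.29, adjusted p = 0.0187) at 0 h (limma). With a pseudocount of 0.1 these were 1.69 and 2.41. The 12 h call of Adamts14 was lost without lung 12 h number 2 (0.62, adjusted p = 0.239) and without any 1 of the 6 ear libraries (adjusted p of 0.0568 to 0.115), and the 0 h call without lung 0 h number 2 (adjusted p = 0.138) or ear 0 h number 3 (adjusted p = 0.0632). Adamts3, the remaining member of the group, stayed at or below 2.25 TPM.

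The main proteoglycan-cleaving Adamts genes of both tissues were Adamts1 and Adamts5, which lie 53.1 kb apart on chromosome 16. Adamts1 was at 44.6 and 51.2 TPM in the 12 h lung libraries, 91.4 and 56.0 TPM in the 0 h lung libraries, 147.5, 50.4 and 46.4 TPM in ear at 12 h and 70.2, 42.0 and 34.9 TPM in ear at 0 h. Adamts5 was at 34.9 and 9.16 TPM in the 12 h lung libraries, 26.0 and 33.4 TPM in the 0 h lung libraries, 123, 45.1 and 44.0 TPM in ear at 12 h and 53.5, 36.0 and 21.3 TPM in ear at 0 h. Ear 12 h number 1 held the top value of both genes. Adamts1 differed by -0.55 (adjusted p = 0.49) at 12 h and 0.60 (adjusted p = 0.524) at 0 h, and Adamts5 by -1.73 (adjusted p = 0.0835) and -0.22 (adjusted p = 0.877). Without lung 12 h number 1, Adamts5 was called at 12 h, with a difference of -2.64 (adjusted p = 0.0272). Adamts4 was at 3.09 to 18.5 TPM over all libraries and Adamts15 at 0.233 to 0.820 TPM in lung and 1.07 to 14.0 TPM in ear, and neither was called. Ear 12 h number 1 and ear 0 h number 1 had the highest levels of Adamts15, and they also had the highest sums of the 7 chondrocyte markers, 101 and 197 TPM against 27.4 to 65.4 TPM in the other ear libraries. Single markers of the list did not all follow. Sox9, Comp and Col9a1 were highest in these libraries too. Acan, Col2a1, Matn3 and Hapln1 were lower in ear 12 h number 1 than in ear number 2 at both times. Acan was at 0.223 TPM there, its lowest ear value, and Col2a1 at 17.5 TPM, against 26.7 and 23.3 TPM in ear number 2 at 12 h and 0 h. The largest part of the sum in ear 12 h number 1 was Comp, at 50.7 TPM. The part of cartilage cells was not tested.

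Adamts10, which binds fibrillin microfibrils, was at 61.0 and 11.7 TPM in the 12 h lung libraries, 17.7 and 33.9 TPM in the 0 h lung libraries and 15.6 to 20.6 TPM in the 6 ear libraries. It had 1 high value, in lung 12 h number 1, and was not called at 12 h (adjusted p = 0.484) or at 0 h (adjusted p = 0.678). Without lung 12 h number 2 the 12 h difference was 1.77 (adjusted p = 0.0174) and was called, and it then rested on lung 12 h number 1 alone. Adamts6, Adamts7 and Adamts13, the last of which cleaves von Willebrand factor, stayed between 1.75 and 7.09 TPM and passed no test.

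Of the Timps, only Timp3 was called in a tissue comparison, at 0 h, and Timp1 and Timp2 were not called at either time. Timp1 (chromosome X, 20870166 to 20874735), a soluble inhibitor that acts weakly on membrane-type Mmps, was at 1166 and 1303 TPM in the 12 h lung libraries, 740 and 1261 TPM in the 0 h lung libraries, 1069, 1652 and 1618 TPM in ear at 12 h and 1007, 1544 and 1984 TPM in ear at 0 h. The tissues overlapped at both times. The difference was -0.20 (SE 0.34, adjusted p = 0.722) at 12 h and -0.59 (SE 0.34, adjusted p = 0.329) at 0 h (limma). Timp2 (chromosome 11, 118301069 to 118355740), which inhibits Mmp2 and also takes part in its activation, was at 674 and 494 TPM in the 12 h lung libraries, 559 and 518 TPM in the 0 h lung libraries, 642, 670 and 685 TPM in ear at 12 h and 676, 575 and 801 TPM in ear at 0 h. At 0 h both lung values lay below the ear values, and at 12 h the tissues overlapped. Its highest value was 1.62 times its lowest, the smallest such ratio among the 32 genes tested, and the difference between tissues was -0.21 (adjusted p = 0.51) at 12 h and -0.33 (adjusted p = 0.338) at 0 h.

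Timp3 (chromosome 10, 86300372 to 86349506), which is held in the matrix and inhibits Adamts proteases as well as Mmps, was at 499 and 253 TPM in the 12 h lung libraries, 161 and 263 TPM in the 0 h lung libraries, 654, 736 and 392 TPM in ear at 12 h and 638, 631 and 530 TPM in ear at 0 h. The tissues were apart at 0 h and overlapped at 12 h, where lung number 1 lay above ear number 3. The difference was -1.53 (SE 0.36, adjusted p = 0.0241) at 0 h and -0.69 (SE 0.36, adjusted p = 0.223) at 12 h (limma). At 0 h the call was lost without lung 0 h number 1 (-1.18, adjusted p = 0.226) and without any 1 of the ear 0 h libraries (adjusted p of 0.0659, 0.0652 and 0.0504). It was also lost without the low-value filter (adjusted p = 0.0518). Timp4, an inhibitor known from the heart, was under 1 TPM in 9 of 10 libraries. The exception, ear 0 h number 1, also had the highest sum of adipocyte markers, 2875 TPM against 56.8 to 551 TPM elsewhere. The part of fat cells was not tested.

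Between 12 h and 0 h, 0 of the 32 genes were called in lung or in ear (limma), against 0.00758% of all genes in lung, which is 1 gene, and 0% in ear. At an unadjusted p under 0.05 there were 1 of the 32 genes in lung and 0 in ear, and 526 and 219 of all genes. The gene in lung was Adamts9, at 8.14 and 3.33 TPM at 12 h and 12.0 and 23.8 TPM at 0 h, with a fold change of 12 h over 0 h of -1.51 (SE 0.51, adjusted p = 1). In ear the same gene gave 0.15 (SE 0.42), and the interaction was -1.66 (SE 0.66, adjusted p = 0.9999). Its lung groups did not overlap, and those of ear did.

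In lung, 9 of the 46 genes did not overlap between the times, of which 8 were tested. Of all genes tested, 25.5% did not overlap, 11.1% with 12 h above and 14.3% below. Mmp14, Mmp27 and Adamts12 lay above their 0 h values at 12 h, and Mmp8, Mmp11, Adamts1, Adamts9, Adamts13 and Adamts20 below. For Mmp14 the lung values were 187 and 180 TPM at 12 h and 123 and 126 TPM at 0 h, with a fold change of 0.56 (SE 0.31, adjusted p = 1, limma). Timp3 in lung had a fold change of 0.79 (SE 0.39) and Timp1 of 0.35 (SE 0.37), both with an adjusted p of 1 and with overlapping groups. In ear, 1 of the 46 genes did not overlap, against 5.37% of all genes tested (3.93% with 12 h above and 1.44% below), and this was Mmp25, which lay below its 0 h values at 12 h and stayed under 1 TPM in every library. Mmp3 had the widest uncertainty in ear, with a fold change of 1.06 (SE 1.03), and Timp2 the narrowest among the Timps, at -0.03 (SE 0.17). The median fold change of 12 h over 0 h over the 32 genes was 0.20 in ear and -0.04 in lung, beside 0.03 and -0.01 over all genes tested. All tissue and time comparisons draw on the same 10 libraries, so a low or high library enters several of them.

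**Figure D5:**
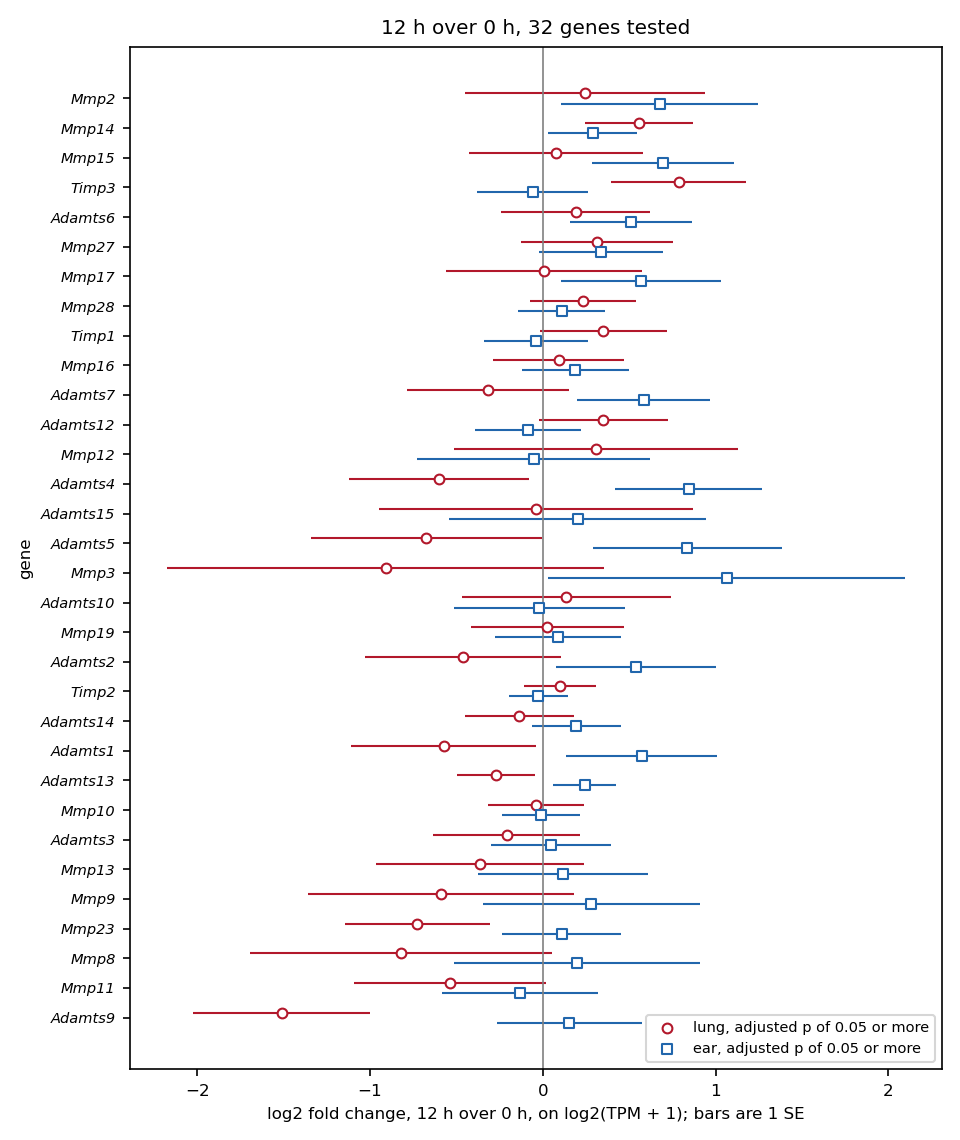
Log2 fold change of 12 h over 0 h (x axis, on log2(TPM + 1), bars 1 SE) for the 32 genes tested (y axis), in lung (circles) and ear (squares). All symbols are open, because no gene reached an adjusted p of 0.05, and Adamts9 in lung, at -1.51, lies farthest from 0.

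Differences among libraries of one group were large and recurred by number in ear. Ear number 1 was the highest of the 3 at both times for 15 of the 32 genes (46.9%, against 33.5% of all genes tested), Mmp2, Mmp11, Adamts1, Adamts2 and Adamts5 among them. Ear number 2 was the lowest at both times for 9 (28.1%, against 11.6%), among them Mmp3, Mmp8, Mmp9 and Mmp12. In lung, 24 of the 32 genes were higher in one number at 12 h and in the other at 0 h (75%, against 59.5%), among them Mmp9, Mmp10, Mmp12 and Mmp13. Equal numbers did not mark equal animals throughout, as the Y-linked gene Ddx3y was at 52.4 TPM in ear 0 h number 2 and 0.0168 TPM in ear 12 h number 2. It was also at 53.3 TPM in lung 0 h number 2 and at most 0.758 TPM in the remaining libraries. The libraries with high Ddx3y were thus all 0 h libraries, in lung and in ear. Sex and time were partly mixed in the time comparisons and the interaction, and their parts cannot be told apart.

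Over the 10 libraries, the gene most like Mmp3 in its order of levels was Adamts3 (Spearman rho 0.89), followed by Adamts15 (0.84) and Adamts13 (0.81), all of the 32 tested genes being compared. For Timp1 the most alike were Timp2 (0.36), Timp3 (0.24) and Adamts13 (0.20), so no protease or inhibitor followed it closely. These are descriptions over the 10 libraries of 4 groups, with no test, and differences between the tissues enter the order. Adamts3 was low, at 0.185 to 2.25 TPM.

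Genes that activate, restrain or work beside these proteases were taken from 9 lists of 57 genes, of which 45 could be tested. At 12 h, 10 were higher and 8 lower in lung, beside 8.07% and 9.12% of all genes tested. At 0 h, 6 were higher and 7 lower, beside 6.11% and 5.17% of all genes, and 0 were called between the times. Plasminogen activation opens the precursors of several Mmps. Plau, the urokinase that starts it, was at 204 ± 162 TPM in the 12 h lung libraries, 148 ± 66.4 TPM in the 0 h lung libraries, 25.0 ± 3.97 TPM in ear at 12 h and 26.8 ± 4.86 TPM in ear at 0 h (mean ± SD, n = 2 in lung and 3 in ear), with differences of 2.72 (SE 0.48, adjusted p = 0.00482) at 12 h and 2.37 (SE 0.48, adjusted p = 0.0126) at 0 h by limma. Plaur and Serpinb2 were higher by 1.89 and 2.34 and Plat, tissue plasminogen activator, lower by -1.67 at 12 h. The 4 proprotein convertases tested, which activate membrane-type Mmps and Adamts precursors, gave 0 calls.

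Reck, a membrane-bound inhibitor of Mmp14, Mmp2 and Mmp9, was at 3.22 ± 1.16 TPM in the 12 h lung libraries, 3.18 ± 1.01 TPM in the 0 h lung libraries, 28.9 ± 11.7 TPM in ear at 12 h and 22.4 ± 8.65 TPM in ear at 0 h (mean ± SD, n = 2 in lung and 3 in ear). It was lower in lung by -2.78 (SE 0.38, adjusted p = 0.00137) at 12 h and -2.45 (SE 0.38, adjusted p = 0.0036) at 0 h (limma). Tfpi2, a secreted serine protease inhibitor, was higher in lung by 1.90 at 12 h and 2.44 at 0 h. Of 9 Adam genes tested, Adam8 (5.44 and 3.26) and Adam19 (2.35 and 3.09) were higher in lung at 12 h and 0 h, and Adam33 (-1.76 and -2.00) lower. Of 6 Adamts-like genes, whose products lack a protease domain, Adamtsl4 was lower in lung at both times (-2.48 and -1.85) and Adamtsl3 at 12 h (-2.66). Pcolce, which speeds the removal of the carboxy-terminal propeptide of procollagen, was lower by -2.85 and -1.78, and the membrane peptidases Mme (-5.93 and -4.92) and Ece1 (-1.59 and -1.65) were lower too. Acan, the aggrecan cut by Adamts proteases, was lower in lung at 0 h (-2.36). Ctss, a cathepsin of antigen-presenting cells that cleaves elastin, was higher in lung by 7.50 and 6.18, and Ctsb and Ctsk were higher at 12 h by 2.06 and 1.52. Adam8 and Ctss are abundant in macrophages, whose marker sums differed between the tissues as given above, and the part of such cells in these values was not tested.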

How the data were processed

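RNA was extracted with a Qiagen kit for DNA and RNA and made into Illumina libraries, per the labels' protocols. The authors deposited 1 table of TPM per transcript, made with kallisto 0.44.1 on GRCm38 per the submitters' processing notes. Neither the labels nor these notes state the transcript set of the index or the strand setting. TPM has a fixed sum and holds no read numbers, so depth is unknown and no counting interval is given.

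Of the 61440 transcripts, 60503 were matched to GENCODE vM21 by Ensembl ID without version, and TPM was summed over 22594 genes. The 937 unmatched transcripts held 0.508% to 0.590% of TPM. Genes with 1 TPM or more in at least 2 libraries (13188) were fitted as log2(TPM + 1) with limma 3.58.1 in R 4.3.3 (1 mean for each of 4 groups, eBayes with trend, 6 residual and 3.23 prior degrees of freedom, two-sided). In all, 5 contrasts were tested, each with Benjamini-Hochberg adjustment over all genes tested and a threshold of 0.05. The scripts were tested on simulated data.

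The genes and lists were chosen with earlier results of these data known. Values in every library are given for genes called in a contrast, for genes at 100 TPM or more and for Timps, and those below 10 TPM throughout are summarised. Genes of related lists are named where called, except 1 that is not reported here. Likeness is Spearman's rho to Mmp3 and Timp1. Promoters are from RefSeq (GRCm38.p6).

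Alternatives were a pseudocount of 0.1, no filter or one of 5 TPM, quantile and upper-quartile scaling, library weights, no variance trend, each library left out, and replicate number as a block. Ear libraries of equal number correlated at 0.453, 0.320 and 0.377 across times after group means were removed. Those of unequal number correlated at -0.491 to 0.266. The labels give no source of a pairing, and Ddx3y set the ear libraries of number 2 apart. Equal numbers were therefore not taken to be 1 animal.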

Additional observations from a re-analysis of the deposited data

How the results depend on the processing

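Over 18 alternatives for each of the 18 tissue calls, 5 calls held in all that could be fitted (Mmp10 and Mmp12 at both times and Mmp9 at 0 h), 13 were lost in at least 1 and 0 reversed. No call was lost with a pseudocount of 0.1, a filter of 5 TPM (which left 16 of the 18), quantile or upper-quartile scaling, or no variance trend, while 5 were lost without a filter, 4 with library weights and 8 without lung 12 h number 2. For lung against ear at 12 h, the count of 9 became 5 with library weights and 3 to 9 with 1 library left out (3 without lung 12 h number 2, of which 2 were among the 9 and Adamts10 was new). At 0 h, the count of 9 became 10 with library weights, which kept the 9 and added Mmp23, and 5 to 9 with 1 library left out (5 without lung 0 h number 1). Over all genes, the 2267 calls at 12 h became 1475 with library weights and 1356 to 2468 with 1 library left out, and the 1488 calls at 0 h became 2368 and 547 to 1752. The 1356 came without lung 12 h number 2, the 547 when lung 0 h number 1 was left out, and leaving out its number 2 gave 885. Where a group was left with 1 library, that library was assumed to vary like the others. With the replicate number as a block, the count was 8 at 12 h (Adamts12 and Adamts14 lost, Adamts5 newly called) and 5 at 0 h (Mmp2, Mmp8, Adamts14 and Timp3 lost), and all genes gave 1164 and 745. Across tissues equal numbers only share a number, with correlations of -0.194 and -0.039 at 0 h and 0.260 and 0.256 at 12 h. The block changed no other call of these genes. For 12 h against 0 h in lung, the 1 call over all genes became 0 with a pseudocount of 0.1, with a filter of 5 TPM, with the replicate block and with a crossed pairing of lung numbers chosen after seeing the data (same-number correlation -0.443), 7 without a filter and 0 to 121 with 1 library left out. The interaction gave 2 calls without a filter, 1 with quantile scaling, 1 with upper-quartile scaling, 1 without a variance trend and 0 to 21 with 1 library left out. Both 121 and 21 came without lung 12 h number 1. No Mmp, Adamts or Timp gene was called between the times, or for the interaction, in any of these. The causes were not tested, and unknown depth limits what can be said of genes below 1 TPM.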
